A study of Mus musculus with 20 samples.

Results

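Serotonin receptors were read here as 10 mouse genes, Htr1a, Htr1b, Htr1d, Htr2a, Htr2c, Htr3a, Htr4, Htr5b, Htr6 and Htr7, out of 20972 gene symbols on the array. Their probes were found by the RefSeq accession that names each probe, which gave 13 of the 55681 probes. Htr2c had 3 probes, Htr4 had 2, and each of the other genes had 1. Of the 13, 10 probes were bright enough to be tested and 3 were not, which left Htr1a with no tested probe.

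Serotonin is released in the forebrain by axons of the raphe nuclei, and its effect on a cell depends on which receptor the cell carries. The Htr1 and Htr5 receptors couple to inhibitory Gi/o proteins and lower cyclic AMP, and Htr1b and Htr1d also sit on axon endings, where they reduce transmitter release. The Htr2 receptors couple to Gq and phospholipase C, while Htr4, Htr6 and Htr7 couple to Gs and raise cyclic AMP. Htr3a is different in kind, since it is a subunit of a cation channel that serotonin opens. In the striatum these receptors are known for tuning dopamine release and the firing of the output neurons.

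The 20 arrays came from 20 male mice of a C57BL/6J background, in 4 groups of 5. The mice were aged 6 to 7 weeks by the labels, but 3 to 5 months by the study's methods. Tat+ mice carried the HIV-1 protein Tat behind a TRE promoter together with a Tet-binding protein driven by the GFAP promoter, which is active in astrocytes, while Tat- mice carried the driver alone. Every mouse, controls included, received doxycycline, the inducer of Tat, at 100 mg/kg a day for 7 days. Tat-/Meth and Tat+/Meth mice received methamphetamine (Meth) at 2 mg/kg on 7 days, and Tat-/Sal and Tat+/Sal mice received saline on those days. The labels give the left hemisphere of a perfused brain taken 24 h after the last injection. The study's methods instead describe dissected caudate putamen, taken soon after a final injection of Meth that followed a period of abstinence and was given to every mouse, so by the methods the Sal groups had also received Meth once before harvest. All 10 striatal markers, among them the dopamine receptors Drd1 and Drd2 and the adenosine receptor Adora2a, were well above background on every array, as were 3 of 8 cortical and hippocampal markers. Of 8 markers of raphe serotonin neurons, 3 were above background on every array, and the serotonin transporter Slc6a4 and En1 were on none. Markers of other regions were compared between Tat-/Meth and Tat-/Sal. There, 28.1% of all probes passed an adjusted p under 0.05 as higher and 22.2% as lower. Of the 3 raphe markers tested between Tat-/Meth and Tat-/Sal, 2 passed an adjusted p under 0.05 as lower, Lmx1b at -1.97 and Fev at -0.95, and Gata2 was at 0.22 without passing. Of 6 tested markers of thalamus and hypothalamus, 3 passed as lower, Tcf7l2 at -1.61, Hcrt at -1.73 and Lef1 at -0.39, while Avp at 1.03 and Oxt at 0.96 did not pass. Of 7 tested markers of cortex and hippocampus, 2 passed as higher, Prox1 at 0.81 and Rprm at 0.65, and 0 as lower. Of these 7, 3 were above 0, and the median was -0.17. Slc17a7 averaged 6.42 in Tat-/Meth and 7.26 in Tat-/Sal, Tbr1 8.47 and 9.15, and Neurod6 5.52 and 6.32. The part of these regions in the receptor results was not tested. In bulk tissue, fewer cells of a type and less RNA per cell cannot be told apart.

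By their barcodes the arrays lay on 3 slides, and the groups were not spread over them. Slide 1 held the 5 Tat-/Meth arrays and nothing else. Slide 2 held the 5 Tat-/Sal arrays with Tat+/Meth replicates 1 to 3, and slide 3 held Tat+/Meth replicates 4 and 5 with the 5 Tat+/Sal arrays. The bright corner control spots, which do not depend on the tissue, read 14.7 to 15.1 log2 units on slide 1, against 16.8 to 17.4 for slides 2 and 3. Every comparison with Tat-/Meth therefore cannot be told apart from slide 1. Differences among the other 3 groups do not use that slide, but all Tat-/Sal arrays were on slide 2 and all Tat+/Sal arrays on slide 3, so that comparison sets 1 slide against another, linked only through Tat+/Meth. With slide as a fixed block, the 14 probes called between Tat+/Sal and Tat-/Sal became 0. That fit compares these groups only through the Tat+/Meth arrays, so the loss does not tell slide from low precision. With slide as a random block 48 were called, and with slide 1 left out 11.

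Signals are given as log2 of the processed signal with the 75th percentile of every array brought to the same level. They can be compared between arrays for 1 probe but not between probes. Testing was limited to probes with a mean of 6 log2 units or more in some group. The dimmest tested receptor probe was that of Htr2c named A_55_P2068461, with a highest group mean of 7.09, and the brightest untested one was the third Htr2c probe, with 5.53. A probe was called when its limma adjusted p, over all 31516 tested probes, was under 0.05 and its change was above 2-fold. By that rule 1 receptor, Htr5b, was called, and no other receptor probe was called in any of the 5 comparisons of groups or in the interaction.

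**Figure D1:**
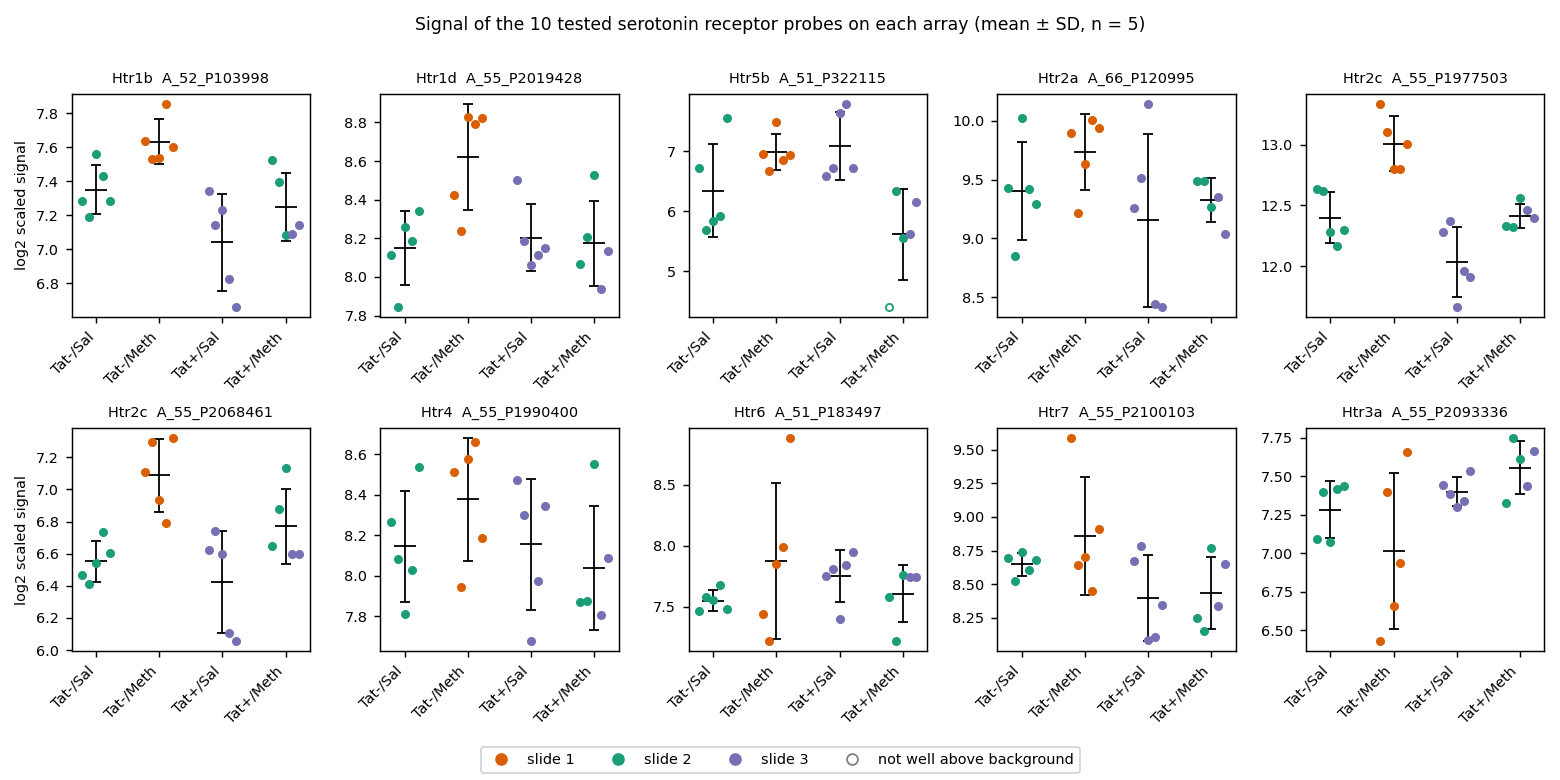
Log2 scaled signal (y axis, a separate range in each panel) of the 10 tested serotonin receptor probes on each array, by group, with points coloured by slide and the mean ± SD of 5 arrays in black. The 5 Tat-/Meth points of both Htr2c probes lie above all Tat-/Sal points, and the 5 Tat+/Meth points of Htr5b lie below all Tat-/Meth and Tat+/Sal points.

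For the 9 upstream windows that RefSeq's GRCm38.p6 annotation gives for 7 of the 10 genes, each of 300 bases that end a little after a transcription start, base composition differed widely. The window of Htr2c, whose signal differed between groups on both tested probes, held 5 CG pairs and was 56.3% G or C. The upstream one of the Htr6 windows, shown because Htr6 is the receptor that the study discusses by name, held 29 CG pairs and was 71% G or C, and that of Htr7 held 46 and was 81%. The median over all 32851 windows was 7 CG pairs and 52.7%. Both sequences are printed 5′ to 3′ on the strand of the gene, with CG pairs in capitals. Htr2c lies at chrX:146962263-146962562 on the plus strand and Htr6 at chr4:139075521-139075820 on the minus strand.
Htr2c: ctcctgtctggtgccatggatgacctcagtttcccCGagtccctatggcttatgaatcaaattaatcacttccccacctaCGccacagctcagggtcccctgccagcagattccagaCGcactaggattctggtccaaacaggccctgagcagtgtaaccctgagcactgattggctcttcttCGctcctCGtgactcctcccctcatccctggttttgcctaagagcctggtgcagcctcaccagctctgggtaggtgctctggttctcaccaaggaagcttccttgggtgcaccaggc
Htr6: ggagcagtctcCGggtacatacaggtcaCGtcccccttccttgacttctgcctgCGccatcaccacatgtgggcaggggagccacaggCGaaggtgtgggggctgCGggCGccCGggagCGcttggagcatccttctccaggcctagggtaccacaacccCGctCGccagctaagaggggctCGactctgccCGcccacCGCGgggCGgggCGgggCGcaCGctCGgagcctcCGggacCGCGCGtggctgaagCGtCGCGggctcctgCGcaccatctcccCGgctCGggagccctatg
On either strand, none of the 9 windows held TATAAA, the core of a TATA box, which 13.6% of all windows hold. None held TGACTCA, an AP-1 site, against 5.2%, or TGACGTCA, the full cyclic AMP response element, against 1.79%. Its core TGACG, which is part of the full element, was found in 1 window, that of Htr7, against 20.8% of all windows.

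Among the Gi/o-coupled receptors, Htr5b was the receptor with the widest differences between groups. On the Tat-/Sal arrays its signal was 6.72, 5.69, 5.84, 5.93 and 7.55, and on the Tat-/Meth arrays 6.96, 6.68, 7.48, 6.86 and 6.93. On the Tat+/Sal arrays it was 6.59, 6.72, 7.63, 7.79 and 6.72, and on the Tat+/Meth arrays 4.41, 6.33, 5.56, 5.62 and 6.16. All 5 Tat+/Meth values were below every Tat+/Sal value and every Tat-/Meth value, while they overlapped those of Tat-/Sal. The lowest value, 4.41 in Tat+/Meth replicate 1, was the 1 of 20 arrays on which the probe was not well above background. The group means ran from 7.09 ± 0.57 in Tat+/Sal and 6.98 ± 0.30 in Tat-/Meth through 6.34 ± 0.78 in Tat-/Sal to 5.61 ± 0.75 in Tat+/Meth (SD, n = 5). In that order each mean differs from the next by less than the larger of their SDs.

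Htr5b was lower in Tat+/Meth than in Tat-/Meth mice by a log2 difference of -1.37 (SE 0.38, adjusted p = 0.00524), or 2.58-fold, the only receptor probe called in that comparison. Across all probes, 12% were called there. Its interaction, the Meth difference in Tat+ mice minus the one in Tat- mice, was -2.11 log2 units (SE 0.53, 95% interval -3.23 to -0.995, adjusted p = 0.00437). Across all probes, 12.4% were called for the interaction. Meth went with a log2 difference of 0.64 in Tat- mice (adjusted p = 0.167) and of -1.48 in Tat+ mice (adjusted p = 0.242), and neither passed the test by itself. Tat+/Sal was above Tat-/Sal by 0.75, with a 95% interval from -0.04 to 1.54 and an adjusted p of 0.33.

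The difference of -1.48 between Tat+/Meth and Tat+/Sal does not involve slide 1. It is a 2.78-fold difference between groups that did not overlap, which happened for 1 of 10 receptor probes and 2.2% of all probes. In this comparison 0% of all probes were called, and the smallest adjusted p of any receptor was that of Htr5b. On slide 3 alone, the 2 Tat+/Meth arrays averaged 5.89 and the 5 Tat+/Sal arrays 7.09, a difference of -1.20 with an exact permutation p of 0.0952 (two-sided and unadjusted, as are all within-slide values, from 10 probes on each of 2 slides). A split of 2 against 5 arrays cannot give an exact p below 0.0476. On slide 2 alone, the 3 Tat+/Meth arrays averaged 5.43 and the 5 Tat-/Sal arrays 6.34, a difference of -0.91 (exact permutation p = 0.25, where the smallest possible is 0.0179).

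Htr5b is known from the habenula, so habenular markers were set beside it. Chrnb4, a nicotinic receptor subunit of the medial habenula, differed between Tat-/Meth and Tat-/Sal by -1.29 log2 units (SE 0.14, adjusted p = 7.67e-07) and between Tat+/Meth and Tat-/Meth by 1.56, a direction opposite to that of Htr5b. It was the 1 habenular marker called of the 5 tested, out of 8 with a probe. Of all probes, 11.6% were called between Tat-/Meth and Tat-/Sal and 12% between Tat+/Meth and Tat-/Meth. The other 4 tested markers were lower in Tat+/Meth than in Tat-/Meth, as Htr5b was. Of these, 2 passed an adjusted p under 0.05, Kctd8 at -0.40 and Nwd2 at -0.30, beside 30.3% of all probes as lower. Tac2 at -0.41 and Gng8 at -0.36 did not pass. Between Tat-/Meth and Tat-/Sal, Kctd8 passed as higher at 0.39, beside 28.1% of all probes. Tac2 at 0.73, Gng8 at 0.35 and Nwd2 at -0.03 did not pass there. The defining marker Gpr151 was well above background on 1 Tat-/Meth and 1 Tat+/Meth array and on no other, and Chrna3 was on none. The log2 of the summed habenular signal ranged from 12.0 to 12.3 in the Tat-/Meth group, from 11.7 to 12.1 in both Tat-/Sal and Tat+/Meth, and from 11.5 to 11.9 in Tat+/Sal. The part of these cells in the Htr5b result was not tested.

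Htr1d, a receptor of axon endings, was at 8.11, 7.85, 8.26, 8.18 and 8.34 in Tat-/Sal and at 8.42, 8.24, 8.83, 8.79 and 8.82 in Tat-/Meth. In Tat+/Sal it was at 8.50, 8.19, 8.06, 8.12 and 8.15, and in Tat+/Meth at 8.07, 8.20, 8.53, 7.94 and 8.13. The Tat-/Meth arrays were the highest as a group, although 2 of them, at 8.24 and 8.42, fell within the range of the others. The log2 difference between Tat-/Meth and Tat-/Sal was 0.47 (SE 0.13, adjusted p = 0.00679), a 1.39-fold difference and so short of the 2-fold limit. Tat+/Meth was lower than Tat-/Meth by -0.45 (adjusted p = 0.00886), and the interaction of -0.50 had an adjusted p of 0.0445. The interaction passed in 20 of 35 alternatives, with values from -0.73 to -0.02 and adjusted p-values up to 0.957. Between the groups that do not lie on slide 1, Htr1d differed by at most 0.05 log2 units.

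Htr1b, the other receptor of axon endings, was at 7.29, 7.19, 7.56, 7.43 and 7.29 in Tat-/Sal and at 7.64, 7.53, 7.54, 7.85 and 7.60 in Tat-/Meth. The Tat+/Sal arrays read 7.34, 7.14, 7.23, 6.83 and 6.66, and the Tat+/Meth arrays 7.52, 7.40, 7.09, 7.09 and 7.14. All Tat-/Meth values were above all Tat+/Meth values, by a small margin, and overlapped those of Tat-/Sal. The difference between Tat+/Meth and Tat-/Meth was -0.38 (SE 0.12, adjusted p = 0.0139), and that between Tat-/Meth and Tat-/Sal, 0.28, had an adjusted p of 0.066. Tat+/Sal differed from Tat-/Sal by -0.31, with an adjusted p of 0.213.

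Htr1a, the autoreceptor of raphe neurons that is also found in hippocampus and cortex, could not be followed. The Htr1a probe cleared background on 4 of 20 arrays, and its group means lay between 4.07 and 4.81. The highest value, 5.46, was in Tat+/Sal replicate 1, and the other arrays of that group lay between 3.45 and 3.97.

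**Figure D2:**
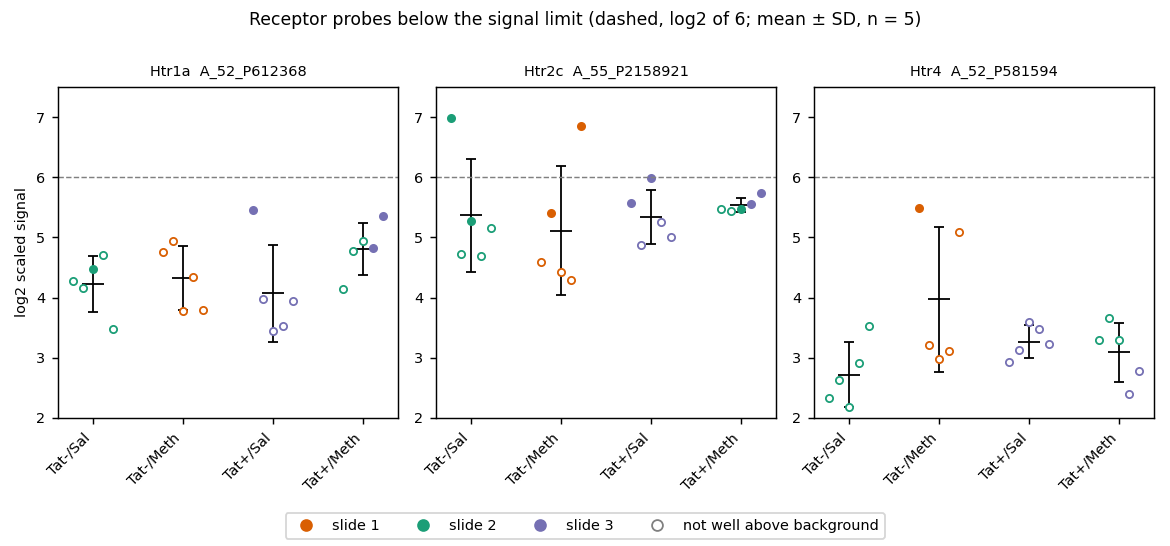
Log2 scaled signal (y axis) of the 3 serotonin receptor probes that did not reach the limit of 6 log2 units (dashed line) in the mean of any group, by group and slide, with the mean ± SD of 5 arrays. Most points are open, since the probes were well above background on 1 to 9 of the 20 arrays.

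Htr2c, a Gq-coupled receptor found in striatal neurons and very abundantly in the choroid plexus, was the receptor with the smallest adjusted p between Tat-/Meth and Tat-/Sal. On its brightest probe, A_55_P1977503, the signal was 12.63, 12.62, 12.28, 12.17 and 12.30 in Tat-/Sal and 13.33, 13.11, 12.80, 12.80 and 13.002 in Tat-/Meth. In Tat+/Sal it was 12.28, 12.37, 11.67, 11.96 and 11.91, and in Tat+/Meth 12.33, 12.32, 12.56, 12.47 and 12.40. Every Tat-/Meth value was above every value of the other 3 groups. The difference between Tat-/Meth and Tat-/Sal was 0.61 (SE 0.13, adjusted p = 0.001), or 1.52-fold. Tat+/Meth was lower than Tat-/Meth by -0.59 (SE 0.13, adjusted p = 0.0011).

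The second tested probe of Htr2c, A_55_P2068461, differed in the same directions. It was at 6.47, 6.41, 6.54, 6.73 and 6.60 in Tat-/Sal and at 7.11, 7.29, 6.93, 6.79 and 7.32 in Tat-/Meth, groups that did not overlap. In Tat+/Sal it was at 6.62, 6.74, 6.60, 6.11 and 6.06, and in Tat+/Meth at 6.65, 6.88, 7.13, 6.60 and 6.60, so that Tat+/Meth overlapped both groups. The difference between Tat-/Meth and Tat-/Sal was 0.54 (SE 0.14, adjusted p = 0.00479), and that between Tat+/Meth and Tat-/Meth was -0.32 (adjusted p = 0.0716). The third Htr2c probe was well above background on 9 arrays and had group means between 5.11 and 5.53. Its range within Tat-/Meth alone, from 4.28 to 6.86, was wider than the distance between any group means.

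Away from slide 1, Htr2c was higher in Tat+/Meth than in Tat+/Sal by 0.38 on the brightest probe (95% interval 0.10 to 0.66, adjusted p = 0.316) and by 0.35 on the second (adjusted p = 0.376), and neither passed the test over all probes. Within slide 3 the brightest probe averaged 12.43 in the 2 Tat+/Meth arrays and 12.04 in the 5 Tat+/Sal arrays, with an exact permutation p of 0.143. Within slide 2, Tat+/Meth and Tat-/Sal both averaged 12.40 on that probe, while the second probe differed by 0.33 (exact permutation p = 0.0357, unadjusted).

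Because Htr2c is abundant in the choroid plexus, the markers of that tissue were read on the same arrays. Of 8 markers 7 were tested, and none passed the test between Tat-/Meth and Tat-/Sal, beside 28.1% of all probes as higher and 22.2% as lower. Their median difference was 0.30, with 6 of 7 above 0, against a median of 0.33 for the receptors and 0.099 over all tested probes. Between Tat+/Meth and Tat-/Meth, where Htr2c was lower, the choroid plexus markers had a median of -0.37 with 6 of 7 below 0. The median over all tested probes was -0.095 there. The water channel gene Aqp1 was called lower in that comparison at -1.26 (adjusted p = 0.0168), beside 12% of all probes called. The transthyretin gene Ttr, the defining marker, stood at -2.99 (adjusted p = 0.127). The log2 of their summed signal ranged from 12.54 to 13.97 for Tat-/Meth and 12.31 to 14.12 for Tat-/Sal, and from 12.26 to 12.89 for Tat+/Meth and 12.13 to 14.06 for Tat+/Sal. Ttr spread from 6.99 to 12.8 within Tat-/Meth and from 6.07 to 13.4 within Tat-/Sal, far more than Htr2c did in either group. The part of choroid plexus in the Htr2c result was not tested.

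Htr2a, the Gq-coupled receptor on which hallucinogens act, was at 9.43, 8.85, 10.02, 9.42 and 9.29 in Tat-/Sal and at 9.90, 9.22, 9.63, 10.00 and 9.93 in Tat-/Meth. In Tat+ mice the signals were 9.26, 9.51, 10.14, 8.44 and 8.42 after saline and 9.49, 9.49, 9.26, 9.35 and 9.04 after Meth. The groups overlapped throughout, and the wide spread within Tat+/Sal, an SD of 0.73, came from replicates 3 to 5. No Htr2a difference passed the test, and the smallest of its adjusted p-values, 0.221, was that between Tat+/Meth and Tat-/Meth.

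Among the Gs-coupled receptors, none passed the test in any comparison. Htr6, a receptor that is abundant in striatal output neurons, was at 7.46, 7.58, 7.55, 7.68 and 7.48 in Tat-/Sal and at 7.44, 7.22, 7.85, 7.99 and 8.88 in Tat-/Meth. In Tat+/Sal it was at 7.75, 7.81, 7.40, 7.85 and 7.95, and in Tat+/Meth at 7.58, 7.22, 7.76, 7.74 and 7.74. The Tat-/Meth arrays held both the highest value of the 20 and, at 7.22, a value below all Tat-/Sal arrays, so the groups overlapped.

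The log2 difference of Htr6 between Tat-/Meth and Tat-/Sal was 0.32 (SE 0.22, 95% interval -0.13 to 0.78, adjusted p = 0.219), or 1.25-fold. It rested on Tat-/Meth replicate 5: without that array the difference was 0.07 (adjusted p = 0.698). That array also had 71.5% of its spots well above background, against 57.5% to 61.3% on the other slide 1 arrays. With no scaling of the arrays the Htr6 difference turned to -0.10, against a median of -0.32 over all probes. With median scaling or normexp background correction it was 0.45 or 0.41, with adjusted p-values of 0.0398 and 0.0414. The other differences of Htr6 were -0.14 between Tat+/Meth and Tat+/Sal, -0.27 between Tat+/Meth and Tat-/Meth and 0.20 between Tat+/Sal and Tat-/Sal. Within slide 3, Tat+/Meth and Tat+/Sal averaged 7.74 and 7.75.

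Htr4 was followed by 1 of its 2 probes, A_55_P1990400, with group means of 8.14 ± 0.27 for Tat-/Sal and 8.38 ± 0.30 for Tat-/Meth, and of 8.15 ± 0.32 for Tat+/Sal and 8.04 ± 0.31 for Tat+/Meth (SD, n = 5). These means differ by about the size of their SDs or less. The second Htr4 probe was well above background on 1 array, Tat-/Meth replicate 1 at 5.48, and its group means lay between 2.71 and 3.97. Htr7 had means of 8.65 ± 0.09, 8.86 ± 0.44, 8.40 ± 0.32 and 8.43 ± 0.27 in the same order of groups. Its highest value, 9.58, was in Tat-/Meth replicate 1, and the other Tat-/Meth arrays lay between 8.45 and 8.91.

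Htr3a, the channel subunit, went the other way from most of the family. It was at 7.09, 7.39, 7.07, 7.42 and 7.44 in Tat-/Sal and at 6.43, 7.40, 6.66, 6.93 and 7.65 in Tat-/Meth. Tat+ mice gave 7.44, 7.38, 7.30, 7.34 and 7.54 after saline and 7.33, 7.75, 7.61, 7.43 and 7.66 after Meth. The low values in Tat-/Meth came from replicates 1, 3 and 4, and the other 2 arrays lay within the range of the remaining groups. Tat+/Meth was higher than Tat-/Meth by 0.54 (SE 0.17, adjusted p = 0.014), while the difference between Tat-/Meth and Tat-/Sal was -0.27 (adjusted p = 0.208). Of the 8 interneuron markers set beside it, 6 were tested. Vip, a peptide of such interneurons, averaged 6.09 in Tat-/Meth and 6.83 in Tat-/Sal, and Cck 12.86 and 13.42. Reln, which encodes reelin, averaged 7.93 and 7.42, and Prox1 6.94 and 6.13. Between these groups 2 markers passed an adjusted p under 0.05 as higher and 1 as lower, beside 28.1% and 22.2% of all probes. Between Tat+/Meth and Tat-/Meth, where Htr3a was higher, 0 passed as higher and 2 as lower, beside 23.2% and 30.3%. The median of the markers there was -0.15. The log2 of the summed signal of the 8 markers was 13.92 to 14.33 for Tat-/Meth and 14.18 to 14.63 for Tat-/Sal, and 13.96 to 14.39 for Tat+/Meth and 14.13 to 14.73 for Tat+/Sal. The part of these cells in the Htr3a result was not tested.

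**Figure D3:**
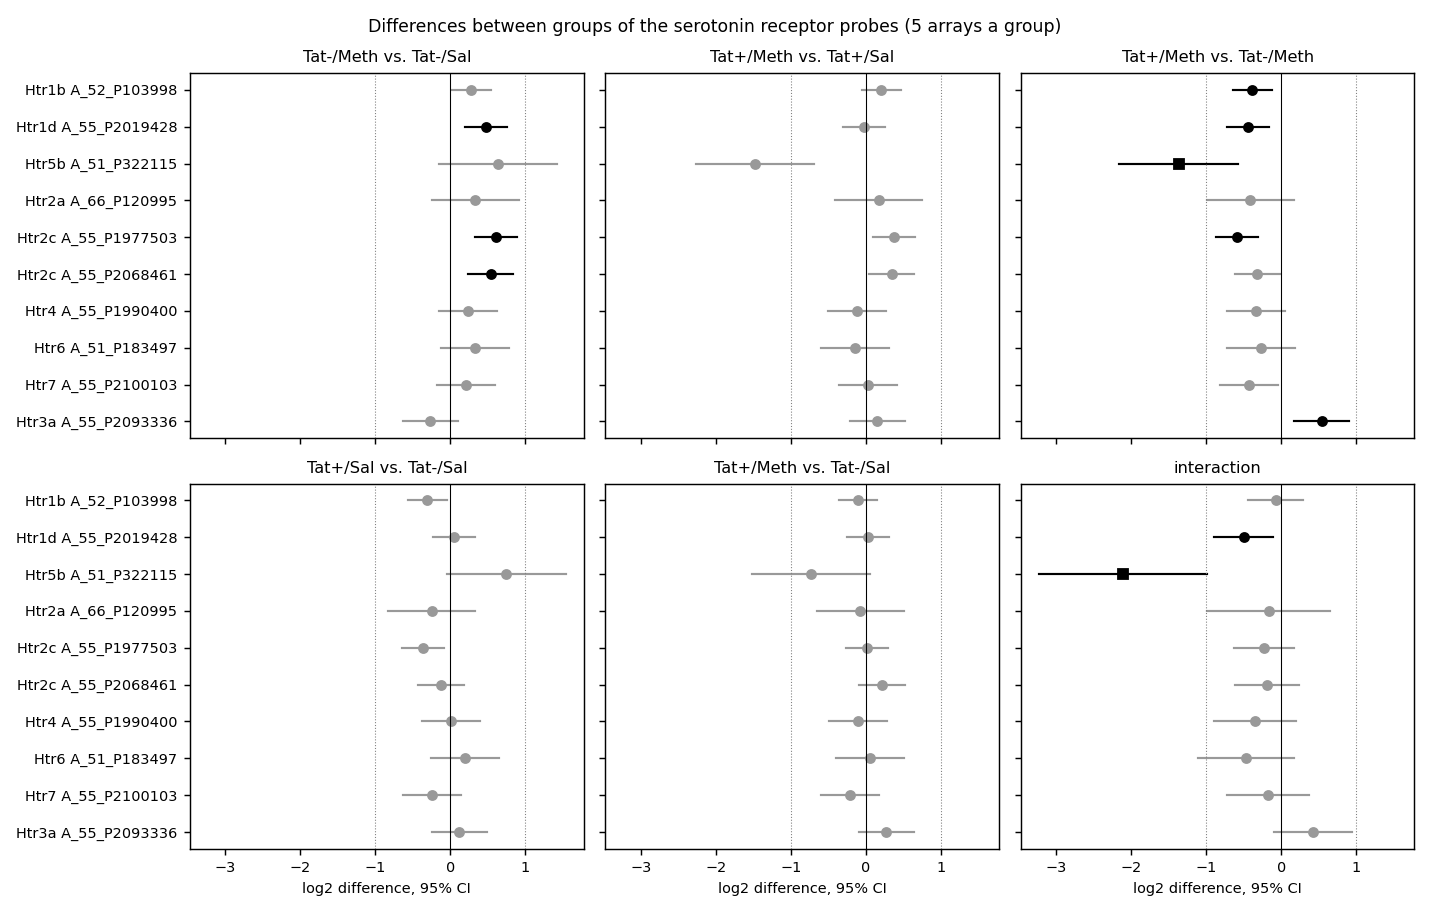
Log2 difference (x axis) with its 95% interval for each of the 10 tested serotonin receptor probes in the 5 comparisons of groups and the interaction. Black marks an adjusted p under 0.05, a square a call, and dotted lines the 2-fold limit. Htr5b is the only receptor past that limit with an adjusted p under 0.05, at -1.37 between Tat+/Meth and Tat-/Meth and at -2.11 for the interaction.

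Across the family, 9 of 10 probes were higher in Tat-/Meth than in Tat-/Sal, with a median log2 difference of 0.33, against a median of 0.10 over all tested probes. This majority depends on the scaling: with no scaling 4 of 10 were higher, with a median of -0.09 against -0.32 over all probes, while median scaling, quantile normalization and normexp correction each gave 9 of 10. None was called, while 11.6% of all probes were. With the adjusted p alone, 3 of 10 passed as higher, both Htr2c probes and Htr1d, and 0 as lower, where 28.1% of all probes passed as higher and 22.2% as lower. The groups did not overlap for 2 of 10 receptor probes and for 36.6% of all probes. The shares of receptors that passed were thus near or below those of all probes.

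Between Tat+/Meth and Tat-/Meth, which share the Tat-/Meth arrays with the comparison above, 9 of 10 probes were lower and the median was -0.40, against -0.10 over all probes. With no scaling 7 of 10 were lower, with a median of -0.06 against 0.24 over all probes. With the adjusted p alone, 4 of 10 passed as lower, Htr1b, Htr1d, Htr5b and 1 Htr2c probe, and 1 as higher, Htr3a. Of all probes 30.3% passed as lower and 23.2% as higher. For 3 of 10 receptor probes, those of Htr1b, Htr5b and Htr2c, the groups did not overlap, as for 37.2% of all probes. For the interaction 2 of 10 passed as lower, Htr5b and Htr1d, and 0 as higher, against 18.1% and 19% of all probes.

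Between groups that do not include Tat-/Meth, no receptor probe passed the adjusted p. In Tat+/Sal against Tat-/Sal the receptor differences ran from -0.36, on the brightest Htr2c probe, to 0.75, for Htr5b, with a smallest adjusted p of 0.18, and 0.0444% of all probes were called. In Tat+/Meth against Tat-/Sal they ran from -0.73, for Htr5b, to 0.27, for Htr3a, with a smallest adjusted p of 0.779, and 0.00317% of all probes were called, which is 1 probe.

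Other genes of serotonin signalling were read on the brightest probe of each gene, and none of them was called in any comparison. Of the 4 serotonin receptors outside the set, Htr1f, a Gi/o-coupled receptor, was the 1 bright enough to test, and Htr3b was not above background on any array. Htr1f averaged 7.26 ± 0.20 for Tat-/Meth and 6.98 ± 0.38 for Tat-/Sal, and 6.96 ± 0.26 for Tat+/Meth and 6.37 ± 0.38 for Tat+/Sal (SD, n = 5). Of 9 genes of serotonin synthesis, transport and breakdown, 5 were tested and none passed an adjusted p under 0.05 in the 5 comparisons of groups. Tph2, the synthesis enzyme of brain serotonin neurons, cleared background on 3 of 5 arrays with Meth and 4 with saline in Tat- mice, and on 0 with Meth and 1 with saline in Tat+ mice.

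The proteins that the receptors act through were read on the same arrays in Tat-/Meth against Tat-/Sal, where 28.1% of all probes passed as higher and 22.2% as lower. Of 7 tested genes of the Gi/o route, Gnai1 at 0.35 and Gnaz at 0.26 passed an adjusted p under 0.05 as higher, and Gnai2 at -0.49 as lower. Among the genes of the Gq route that are reported here, the calcium channel Itpr1 passed as lower at -0.21. Of 7 tested genes of the Gs route, Gnas at 0.28 and the kinase subunit Prkacb at 0.23 passed as higher, and the striatal G protein Gnal at -0.22 and the striatal cyclase Adcy5 at -0.42 as lower. These counts of 2 higher and 1 lower for Gi/o, and of 2 higher and 2 lower for Gs, are near the shares over all probes.

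Of 11 binding partners, chaperones and editing enzymes of the receptors, 4 passed as higher in Tat-/Meth than in Tat-/Sal and 0 as lower, beside the same 28.1% and 22.2% of all probes. They were the kinases Cdk5 at 0.26 and Fyn at 0.34, the arrestin Arrb2 at 0.41 and Adarb1 at 0.25, an enzyme that edits Htr2c RNA. Between Tat+/Meth and Tat-/Meth, 6 of the 11 passed as lower, beside 30.3% of all probes, with Arrb2 at -0.69 the farthest from 0. S100a10, an adaptor that binds Htr1b and Htr4, was among the 6, at -0.46. Between Tat+/Meth and Tat+/Sal, none of the genes on these lists passed.

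The genes whose signal followed each receptor most closely were found from deviations from the group means over 20 arrays, among 15045 genes. For Htr2c the nearest were Tmem255a (r = 0.87), Cfap20 (0.84) and the GABA receptor subunit gene Gabrg1 (0.83). For Htr2a they were the glutamate receptor gene Grin2a (0.89), Mosmo (0.88) and Cmas (0.86). For Htr6 they were 5430405H02Rik (0.90), Aspdh (0.85) and Gins2 (0.84), and for Htr5b they were BC006965 (0.79), H2aj (0.77) and Actg1 (0.76). For Htr1b the nearest were Atl3 (0.86), the nucleotidase gene Nt5e (0.84) and Lmo7 (0.83), and for Htr1d they were Tmem184b (0.82), Anxa11 (0.81) and Arid2 (0.80). The nearest gene was Man1a2 for Htr4 (0.83), Tfb1m for Htr7 (0.85) and Trp53 for Htr3a (0.85). Arrays share hybridization and scaling, so these values of r are a description of the arrays. Those of Htr6 include Tat-/Meth replicate 5, at 8.88 against 7.22 to 7.99 on the other arrays of its group. How high the largest r among 15045 genes would be by chance was not tested.

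**Figure D4:**
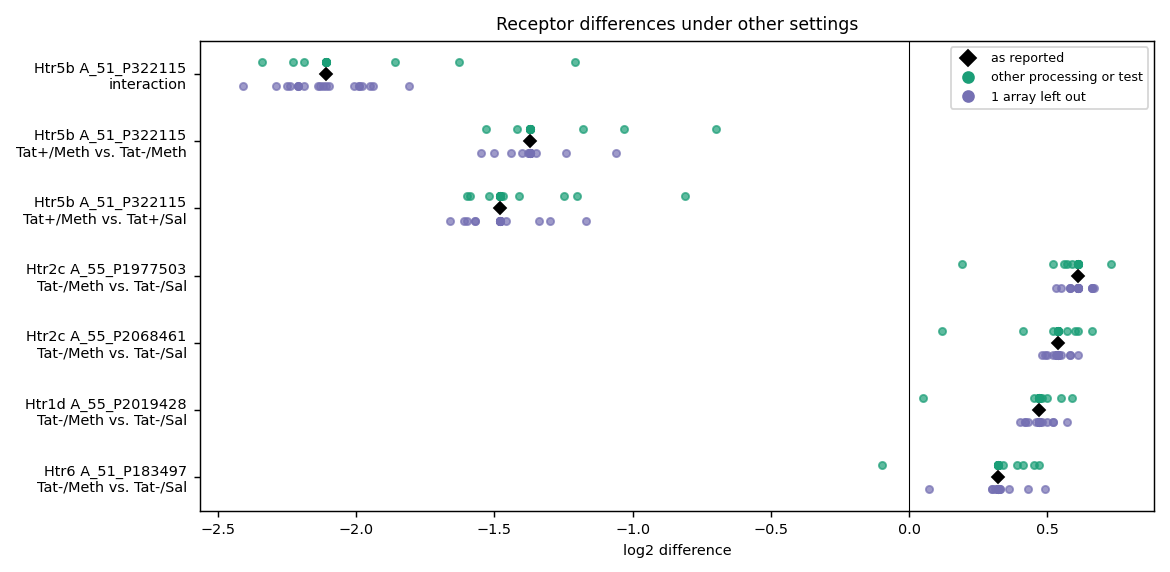
Log2 difference (x axis) of 7 receptor results as reported (black diamonds), under other processing or tests (green) and with 1 array left out (violet). The interaction of Htr5b stays between -2.41 and -1.21, while the Tat-/Meth vs. Tat-/Sal difference of Htr6 runs from -0.10 to 0.49.

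The Htr5b interaction stayed called in all 35 alternatives that could give it, from -2.41 to -1.21. The call of Htr5b between Tat+/Meth and Tat-/Meth was lost with normexp background correction, at -0.70 (adjusted p = 0.0188), because the change was then under 2-fold. With no scaling, where the median of all probes moved from 0.10 to -0.32 between Tat-/Meth and Tat-/Sal, the brightest Htr2c probe stood at 0.19 (adjusted p = 0.419), the second at 0.12 and Htr1d at 0.05, above that median but without passing the test. In the same way, between Tat+/Meth and Tat-/Meth the brightest Htr2c probe stood at -0.26, Htr1d at -0.11 and Htr1b at -0.05 with no scaling, none of them past the test. The Htr3a difference between those groups lost its adjusted p with median scaling (0.38, adjusted p = 0.0604), normexp correction (0.20, adjusted p = 0.0985), the series matrix values, a fit of these groups alone and the methods' t-test. The interaction of Htr1d passed the adjusted p in 7 of 20 fits that left out 1 array, and with no scaling it was -0.02 (adjusted p = 0.957).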

How the data were processed

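RNA of 20 mouse brains was hybridised to 1-colour arrays. The authors deposited spot intensity values in the layout of Agilent's Feature Extraction software, of which the background-corrected processed signal was used. The study's methods instead name an Axon scanner and the GenePix software. The series matrix that the authors deposited holds intensity as well and served as an alternative. Outlier spots (4278 in all) were left out, spots of a probe averaged as log2, and each array scaled to its 75th percentile. Probes with 3 or more values in each group and a mean of at least 6 log2 units in 1 group were tested. Symbols came from the RefSeq accession of a probe, for 27656 of 55681 probes.

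limma 3.58.1 (R 4.3.3) was fitted with 1 mean per group over all 31516 tested probes, with Benjamini-Hochberg adjustment. The text names every receptor probe, markers set beside a result, and up to 3 genes nearest to a receptor by r. Of the list genes outside the Gq route, it names those that passed the adjusted p between Tat-/Meth and Tat-/Sal. A list gene that passed in another comparison may be unnamed. The receptors, lists and tests were chosen with earlier results of these data known. In simulated data 96.5% of 200 probes changed by 2 log2 units were called for Tat-/Meth vs. Tat-/Sal. Those data had independent noise and no slide effect. The receptor differences in that comparison ran from -0.27 to 0.64, so this rate does not apply to them. Alternatives covered scaling, background, filters, probe choice, blocks, thresholds and 1 array left out. Samples were not treated as paired by replicate number. With group means subtracted, same-numbered arrays of different groups correlated at -0.14 to 0.31 (median 0.057). Differently numbered ones correlated at -0.37 to 0.22 (median -0.011). The number of arrays limits the precision. The list of the Gq route is not reported here in full.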

Additional observations from a re-analysis of the deposited data

Results flagged for a closer look

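The interaction term, the difference in the effect of Meth between Tat+ and Tat- mice, passed an adjusted p under 0.05 for 2 receptor probes. They were Htr5b, at -2.11 log2 units (adjusted p = 0.00437), and Htr1d, at -0.50 (adjusted p = 0.0445), both in limma over all probes. That of Htr1d passed in 20 of 35 alternatives and in 7 of 20 fits that left out 1 array, and it was -0.02 (adjusted p = 0.957) with no scaling. The interaction uses the Tat-/Meth arrays, and so it cannot be told apart from slide 1.

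A single array stood apart from the other 4 of its group in 3 of 52 sets of a probe and a group, where chance gives about 1 in 20. Htr1a was at 5.46 in Tat+/Sal replicate 1, against 3.45 to 3.97 on the others. Htr1d was at 8.50 on that same array, against 8.06 to 8.19. The dim Htr2c probe A_55_P2158921 was at 6.99 in Tat-/Sal replicate 1, against 4.68 to 5.27.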

How the results depend on the processing

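With no filter on signal, 1 receptor probe was called between Tat-/Meth and Tat-/Sal, the second Htr4 probe, which was above background on 1 array. Of all 55672 probes in that fit, 5614 were called. With no fold limit, 3 receptor probes were called between Tat-/Meth and Tat-/Sal, 5 between Tat+/Meth and Tat-/Meth and 2 for the interaction. Of all 31516 tested probes, 15840, 16861 and 11666 were called in the same order. The methods' t-test without adjustment called 1 receptor probe between Tat+/Meth and Tat+/Sal, Htr5b, and 32 of all 31516 probes. Between Tat+/Meth and Tat-/Meth, 0 receptor probes were called with normexp background correction, beside 1802 of all 55325 probes. At an adjusted p under 0.01 and above 3-fold 0 were called there, beside 1855 of all 31516. Every other alternative that could give a value, the 20 that leave out 1 array included, left each number of called receptors as reported. With the replicate block the Htr5b interaction was -2.11 (adjusted p = 0.00775), and no call was changed. Of the named differences, that of Htr6 between Tat-/Meth and Tat-/Sal reversed, to -0.10 with no scaling; the cause was not tested. With slide as a fixed block among the 15 arrays outside Tat-/Meth, Htr5b differed between Tat+/Meth and Tat+/Sal by -1.20 (adjusted p = 1.0). Leaving slide 1 out of the fit, which was chosen after seeing the data, gave -1.48 (adjusted p = 0.246). Signals near background limit what can be said of Htr1a, of the third Htr2c probe and of the second Htr4 probe.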
